A study of Mus musculus with 144 samples.

Results

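The acyl-CoA enzyme genes are the genes whose products join fatty acids to coenzyme A, carry the resulting acyl-CoA esters, oxidise them or split them again. They were taken from the raw gene table by symbol, as the rows named Acsl, Acsm, Acss or Acbd with a number, every row beginning with Acad, and the numbered Acot rows other than Acot1. This gave 41 of 51912 genes: 5 long-chain acyl-CoA synthetases (Acsl), 5 medium-chain acyl-CoA synthetases (Acsm), 4 short-chain synthetase rows (Acss, of which Acss2os is an antisense non-coding transcript), 5 acyl-CoA binding domain proteins (Acbd), 10 acyl-CoA dehydrogenases (Acad) and 12 acyl-CoA thioesterases (Acot). The rule reads symbols only, but it was chosen with earlier results of these data known.

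The study measured mouse liver RNA by 3′ mRNA sequencing (QuantSeq, in which reads start near the poly(A) tail) to follow polyadenylation site usage through the day. All mice were male on a C57BL/6J background, housed on a cycle of 12 light and 12 dark hours with unrestricted food and water, and no age is given in the labels used here. The 4 series were total RNA of wild-type liver, nuclear RNA of wild-type liver (nuclei pelleted through a sucrose cushion), polysomal RNA of wild-type liver (fractions of a sucrose gradient run with cycloheximide) and total RNA of liver labelled Bmal1-/-, that is, without the clock transcription factor BMAL1. Livers were sampled at ZT2, 6, 10, 14, 18 and 22 (ZT, zeitgeber time in hours from lights on), with 6 libraries per series and time, so 144 libraries in all. The labels do not say which libraries came from the same animal, so the p-values below measure the spread between these libraries.

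A fatty acid enters metabolism once a synthetase has made it an acyl-CoA. In liver, mitochondrial dehydrogenases then begin each turn of β-oxidation, while thioesterases in the cytosol, mitochondria and peroxisomes release free fatty acid and coenzyme A again. Many of these genes are known targets of PPARα, the nuclear receptor that responds to fatty acids in the fasted liver, and feeding in mice is mostly nocturnal.

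Total counts ran from 5316601 to 9831142 per library in wild-type total RNA, 1662449 to 6620128 in nuclear RNA, 2578048 to 13068044 in polysomal RNA and 4379549 to 14281894 in Bmal1-/- total RNA. Expression is printed as CPM, a gene's share of its library's gene counts scaled to the same total in every library, and a gene's CPM is compared only with its own CPM in other libraries. All 6 hepatocyte markers were counted in every series, with median summed levels of 78736 CPM in wild-type total, 50128 CPM in nuclear, 37257 CPM in polysomal and 61753 CPM in Bmal1-/- total RNA. Arntl, which encodes BMAL1, still gave a mean of 11.5 CPM in the Bmal1-/- libraries against 6.73 CPM in wild-type total RNA; a tag from a transcript's 3′ end does not check a deletion elsewhere in the gene. Dbp, a clock output gene, had time-point means of 1.05 to 97.6 CPM in wild-type total RNA and 2.42 to 3.22 CPM in Bmal1-/- total RNA. In 4 libraries, 1 per series and all at ZT22, Xist exceeded 100 CPM although every label says male, and in the other libraries it was at most 5.67 CPM. For genes tested both with and without these 4 libraries, results that change are given with both values.

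Of the 41 genes, 34 averaged 10 or more counts over the libraries of both genotypes and were tested. Acsl6, Acss1, Acbd7, Acot5 and Acot10 were too low to test in any series, with highest single-library levels of 2.81, 1.70, 0.569, 2.41 and 1.29 CPM. Acsm4 and Acss2os had 0 counts in all 144 libraries, which allows at most 0.0106 CPM over the wild-type total libraries (3 counts over their summed total, counting error only). Acot9, a mitochondrial thioesterase, and Acsm2 were too low to test in nuclear RNA. Acot2, Acot3, Acot4, Acot5 and Acot6 lie side by side on chromosome 12 and are close copies of one another, as are the 5 Acsm genes on chromosome 7, so the authors' counting could have split reads between neighbours and their single values carry that uncertainty.

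The thioesterases Acot3 and Acot4 moved through the day and with the genotype, and the other time-dependent members were Acot11, Acot12, Acot7, Acsl1, Acsl5, Acsm5 and Acbd5. Gene positions and promoters are RefSeq's (GRCm38.p6), and site positions below are those of the authors' files (mm10). Promoter windows of 300 bases (250 before to 50 after an annotated start) were at hand for 35 of the 41 genes. The 4 windows printed here belong to the 2 neighbouring thioesterases and to the other 2 members whose window holds CACGTG, the E-box that the BMAL1 and CLOCK pair is known to bind. Capitals mark CACGTG and AGGTCA, the half-site that nuclear receptors such as PPARα and REV-ERB recognise, which reads TGACCT on the printed strand where it lies on the other one.
Acot4 (chr12:84038129-84038428, plus strand): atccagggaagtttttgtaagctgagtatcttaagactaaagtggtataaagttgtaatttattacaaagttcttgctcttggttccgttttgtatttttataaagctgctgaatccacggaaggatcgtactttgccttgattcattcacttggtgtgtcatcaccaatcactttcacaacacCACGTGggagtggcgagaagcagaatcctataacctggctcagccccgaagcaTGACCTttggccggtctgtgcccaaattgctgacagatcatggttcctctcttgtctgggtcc
Acot3 (chr12:84051894-84052193, plus strand): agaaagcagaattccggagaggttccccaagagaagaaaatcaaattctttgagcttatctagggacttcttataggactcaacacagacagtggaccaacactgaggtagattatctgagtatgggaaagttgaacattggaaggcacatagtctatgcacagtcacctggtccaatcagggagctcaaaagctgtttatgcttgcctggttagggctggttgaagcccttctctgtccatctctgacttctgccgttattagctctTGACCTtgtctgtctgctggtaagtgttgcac
Acot11 (chr4:106799782-106800081, minus strand): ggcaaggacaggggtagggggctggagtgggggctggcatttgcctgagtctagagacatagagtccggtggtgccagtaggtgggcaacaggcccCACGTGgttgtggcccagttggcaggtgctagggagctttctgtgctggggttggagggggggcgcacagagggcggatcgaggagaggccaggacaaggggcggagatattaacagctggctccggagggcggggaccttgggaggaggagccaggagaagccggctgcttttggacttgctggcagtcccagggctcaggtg
Acsm5 (chr7:119526015-119526314, plus strand): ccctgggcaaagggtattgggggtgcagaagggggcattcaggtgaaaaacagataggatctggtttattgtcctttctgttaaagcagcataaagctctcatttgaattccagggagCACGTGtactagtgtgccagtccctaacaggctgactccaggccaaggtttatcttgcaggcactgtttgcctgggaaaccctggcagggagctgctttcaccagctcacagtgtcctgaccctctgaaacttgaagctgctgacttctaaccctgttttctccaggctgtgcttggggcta

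The E-box, searched on both strands, was found in the windows of 3 of the 35 genes, Acot4, Acot11 and Acsm5. All 3 are among the 9 members rhythmic in wild-type total RNA, a series in which 18.9% of all genes tested were rhythmic. The share of rhythmic genes among all genes with an E-box was not computed, so the overlap is not read as a link. It began at position -66 from the annotated start in Acot4, at -132 in Acsm5 and at -154 in Acot11, in 1 of the 2 windows of that gene. The 35 genes have 43 windows, of which 3 (6.98%) held it, against 7.15% of all 32851 windows of that length. The half-site was found in 10 of the 43 windows (23.3%), against 16.3% of all windows, and these belong to 8 genes, Acadm, Acadvl, Acot3, Acot4, Acot5, Acot12, Acsl6 and Acsm1. The D-box sequence TTATGTAA was found in Acsm3 and in no other member (0.938% of all windows), and neither TTACGTAA (0.119% of all windows) nor DR1, a direct repeat of the half-site with a base between (0.381%), was found in the members' windows. A match describes the letters only, and no binding was measured.

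Rhythm through the day was tested in each series by fitting a cosine and a sine of 24 h, with edgeR's quasi-likelihood test over all genes and Benjamini-Hochberg adjustment at 0.05. In wild-type total RNA 9 of the 34 tested members were called, against 18.9% of all genes tested, and the median peak-to-trough ratio was 1.30 over the members and 1.25 over all genes. By family these were 5 of 10 Acot genes, 2 of 4 Acsl genes, 1 of 4 Acsm genes, 1 of 4 Acbd genes, 0 of 2 Acss genes and 0 of 10 Acad genes. No dehydrogenase reached an unadjusted p under 0.05 either in this series.

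Acot3 (chr12:84052144-84060400), a peroxisomal long-chain acyl-CoA thioesterase, had lowest, median and highest levels of 0.311, 2.94 and 10.6 CPM at ZT2, 2.88, 4.34 and 7.06 CPM at ZT6, 4.30, 23.9 and 61.1 CPM at ZT10, and 0.303, 17.6 and 94.9 CPM at ZT14 in wild-type total RNA. At ZT18 they were 4.17, 12.4 and 45.9 CPM and at ZT22 2.86, 11.6 and 67.4 CPM. No library of ZT2 or ZT6 exceeded 10.6 CPM, whereas those from ZT10 onward ran from the lowest to the highest of the series, so all time points overlapped. The fitted curve peaked at ZT15.1 with a peak-to-trough ratio of 6.22 (edgeR adjusted p = 0.0439); without the library least correlated with its series, ZT2 replicate 4, the adjusted p was 0.0558.

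Acot4 (chr12:84037254-84044723), a peroxisomal thioesterase that in mouse hydrolyses succinyl-CoA and other dicarboxylic acyl-CoAs, had medians of 21.8 CPM at ZT2, 29.7 at ZT6, 64.0 at ZT10, 56.8 at ZT14, 48.7 at ZT18 and 39.1 at ZT22. Its lowest library held 16.3 CPM, at ZT2, and its highest 138 CPM, at ZT14. The curve peaked at ZT14.7 with a ratio of 2.69 (edgeR adjusted p = 0.0026). Acot3 and Acot4 rose and fell in the same libraries: Pearson's r of their log2(CPM + 0.5) was 0.93 in wild-type total RNA, 0.80 in nuclear RNA, 0.82 in polysomal RNA and 0.94 in Bmal1-/- total RNA, each over 36 libraries that share depth and handling for both genes.

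Acot11 (chr4:106744555-106805007), a thioesterase best known from brown fat, was low, from 0.472 to 10.01 CPM, with a median of 1.96 CPM at ZT2, 5.39 at ZT10, 3.54 at ZT14 and 1.64 at ZT22. Its fitted peak was at ZT12.8 with a ratio of 2.62 (edgeR adjusted p = 0.0168). Its level also differed between sets of replicates: replicates 1 to 3 had 4.37 ± 2.31 CPM (SD, n = 18) and replicates 4 to 6 had 2.01 ± 1.16 CPM (SD, n = 18). The summed level of the 6 adipocyte markers moved the same way, at 0.152 to 124 CPM (median 21.3) in replicates 1 to 3 and 0.126 to 2.12 CPM (median 0.528) in replicates 4 to 6. Not every marker did: Lep was at 0 throughout wild-type total RNA, and Plin1 was at 0 throughout replicates 1 to 3, where the sum was high. The Kupffer cell and macrophage and the erythroid marker sums also had higher medians in replicates 1 to 3 than in 4 to 6. These were 364 against 212 CPM and 3511 against 1869 CPM. Whether the adipocyte sum came from adipocytes, and the part of any of these cells in the Acot11 values, was not tested. Within replicates 4 to 6 alone the adjusted p of the rhythm was 0.0924.

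Acot12 (chr13:91741326-91786148), the cytosolic acetyl-CoA hydrolase of liver, was called in this series under each alternative setting that was run. Its medians were 42.1 CPM at ZT2, 49.3 at ZT6, 57.9 at ZT10, 51.1 at ZT14, 43.3 at ZT18 and 31.0 at ZT22, with a peak at ZT10.6 and a ratio of 1.499 (edgeR adjusted p = 0.000893). The 6 libraries of ZT14 lay between 49.6 and 53.5 CPM, while those of ZT22 spread from 23.96 to 51.2 CPM. Acot7, a cytosolic long-chain thioesterase most studied in brain, peaked at ZT16.3 with a ratio of 1.44 (adjusted p = 0.0256), and its lowest library, 6.40 CPM at ZT2, was again ZT2 replicate 4.

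The 3 synthetases that were called peaked at different times. Acsl1 (chr8:46471037-46536051), the main long-chain acyl-CoA synthetase of liver, peaked at ZT18.2 with a ratio of 1.44 (edgeR adjusted p = 0.00442), from a median of 754 CPM at ZT6 to 1083 CPM at ZT18. Acsl5 (chr19:55251861-55296628), a long-chain synthetase of mitochondria and the endoplasmic reticulum, peaked at ZT2.35 with a ratio of 1.48 (adjusted p = 0.00583), from a median of 171 CPM at ZT18 to 298 CPM at ZT2. The 2 genes thus stood at opposite ends of their range at ZT18, Acsl1 high and Acsl5 low. Acsl4, which prefers arachidonic acid, had a ratio of 1.54 with its peak at ZT19.7 and was not called (adjusted p = 0.056). Acsm5, a mitochondrial medium-chain synthetase, peaked at ZT8.04 (ratio 1.35, adjusted p = 0.0499), and Acbd5, which tethers peroxisomes to the endoplasmic reticulum, at ZT5.47 (ratio 1.35, adjusted p = 0.0448); both lay close to the threshold, and Acsm5 had an adjusted p of 0.0733 without the libraries with Xist above 100 CPM. Acot9 went the other way, from an adjusted p of 0.0731 to 0.0494 without them.

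**Figure D1:**
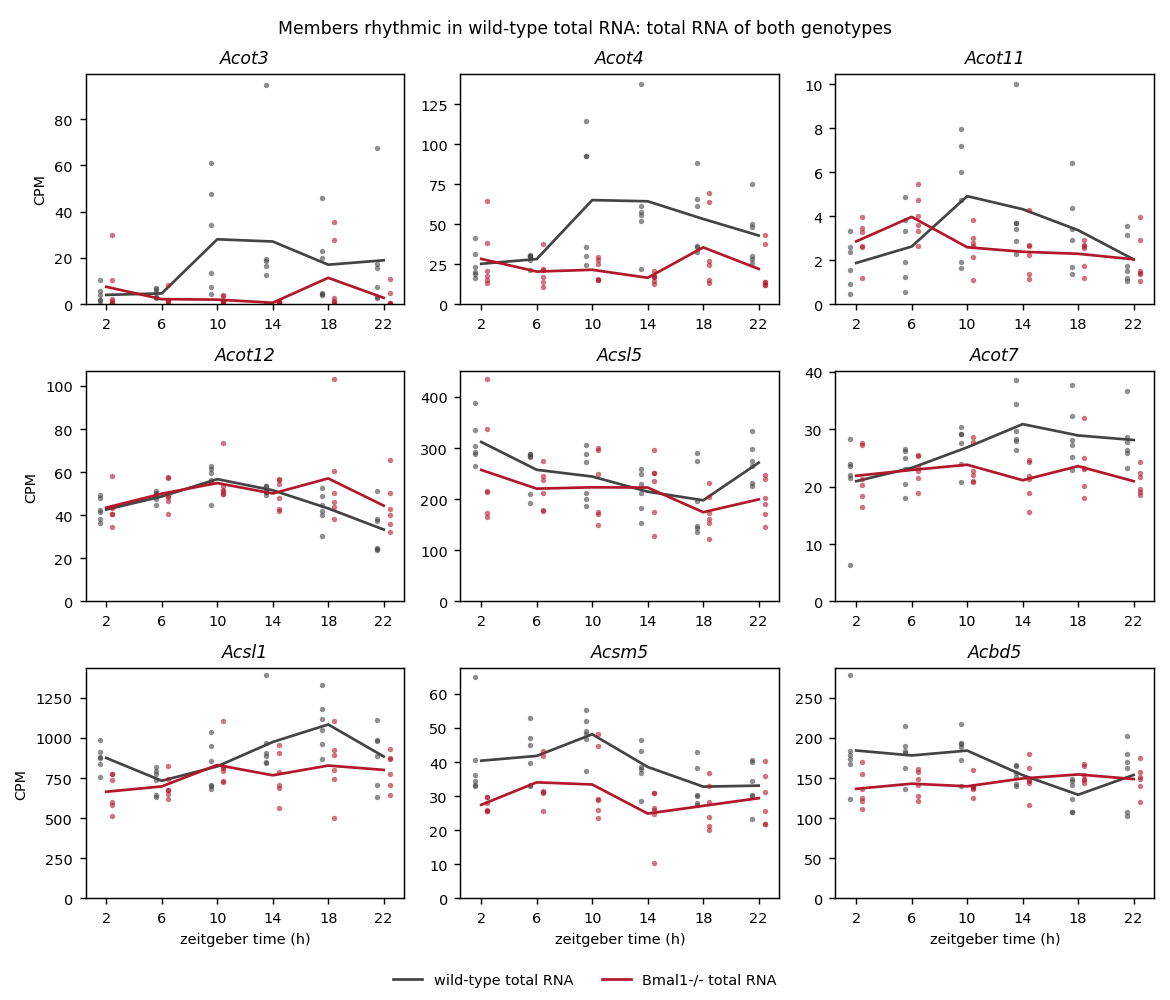
Levels in CPM of the 9 members called rhythmic in wild-type total RNA, by zeitgeber time in hours, in wild-type total (grey) and Bmal1-/- total RNA (red); each point is 1 library and the lines join the means of 6 libraries. Acot3 and Acot4 spread widely from ZT10 onward in wild type, and in Bmal1-/- RNA the 6 Acot3 libraries above the wild-type median lie at ZT2, ZT6, ZT18 and ZT22.

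In Bmal1-/- total RNA 0 of 34 members were called rhythmic by edgeR, against 0.00825% of all genes, and 1 had an unadjusted p under 0.05; DESeq2 called 0 as well. Acot3 in these livers had medians between 0.445 CPM at ZT22 and 1.90 CPM at ZT18, but single libraries reached 35.7 CPM. The 6 libraries above the wild-type median of 7.20 CPM were replicates 5 and 6 at ZT2 (10.5 and 30.0 CPM), replicate 6 at ZT6 (8.33 CPM), replicates 5 and 6 at ZT18 (27.6 and 35.7 CPM) and replicate 5 at ZT22 (10.8 CPM). The same 6 libraries held 38.4, 64.8, 37.4, 64.2, 69.4 and 43.2 CPM of Acot4, against medians of 14.02 to 25.5 CPM by time point. At ZT10 and ZT14, when Acot3 was highest in wild type, no Bmal1-/- library exceeded 4.09 CPM.

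A difference in rhythm between the genotypes was tested directly, as the interaction of genotype with the cosine and sine. Of 34 members 1 was called, against 5.11% of all genes: Acot11 (edgeR adjusted p = 0.0375), whose ratio was 2.62 with a peak at ZT12.8 in wild type and 1.70 with a peak at ZT5.97 in Bmal1-/- RNA. Its Bmal1-/- medians ran from 1.47 CPM at ZT22 to 3.82 CPM at ZT6, and the 2 genotypes overlapped at every time point. The call was lost with no filter on low counts (adjusted p = 0.05004), with all 4 series in 1 fit (0.342), with time point as a factor (0.234), in replicates 1 to 3 (0.117) and in replicates 4 to 6 (0.164). It was also lost without the least correlated library of each series (adjusted p = 0.0510), where Acot4 and Acot7 were called (0.0375 and 0.0184). A further 7 members had an unadjusted p under 0.05 and were not called, Acot4 (adjusted p = 0.0549), Acbd5 (0.0686), Acot3 (0.0906), Acot7 (0.0949), Acot9 (0.153), Acsl4 (0.206) and Acad8 (0.245). Acot3 and Acot4 were called without the libraries with Xist above 100 CPM (adjusted p = 0.0235 and 0.0408), 1 of which is wild-type replicate 5 at ZT22, the highest Acot3 library of its time point.

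Within nuclear RNA 3 of 32 tested members were called rhythmic, against 5.99% of all genes: Acsm5 (ratio 1.82, peak ZT7.18, edgeR adjusted p = 0.00277), Acot12 (1.52, ZT10.2, 0.0372) and Acot4 (2.17, ZT13.01, 0.0398). Acot3 had a ratio of 5.65 with a peak at ZT15.6 and was not called (adjusted p = 0.108); without the library with Xist above 100 CPM, which is also the least correlated nuclear library, it was called (0.00462) and Acot12 was not (0.0663). In polysomal RNA 5 of 32 were called, against 7.90%: Acot12 (1.72, ZT11.5, 0.000283), Acot4 (2.82, ZT15.8, 0.000847), Acot3 (11.7, ZT15.6, 0.0105), Acsl5 (1.60, ZT3.78, 0.0178) and Acbd5 (1.55, ZT8.34, 0.0373, and 0.0666 without 1 library, ZT22 replicate 1). The peaks of Acot12 in the 3 wild-type series, ZT10.6, ZT10.2 and ZT11.5, lay within about the same hour. Acsl1 had a ratio of 1.48 with a peak at ZT15.4 in nuclear RNA (adjusted p = 0.0954) and of 1.04 in polysomal RNA (0.979). The interaction test called 0 members between nuclear and total RNA and 0 between polysomal and total RNA (edgeR; 0 with an unadjusted p under 0.05 in each; 0% of all genes in each), so no difference in rhythm between the fractions was detected for any member.

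**Figure D2:**
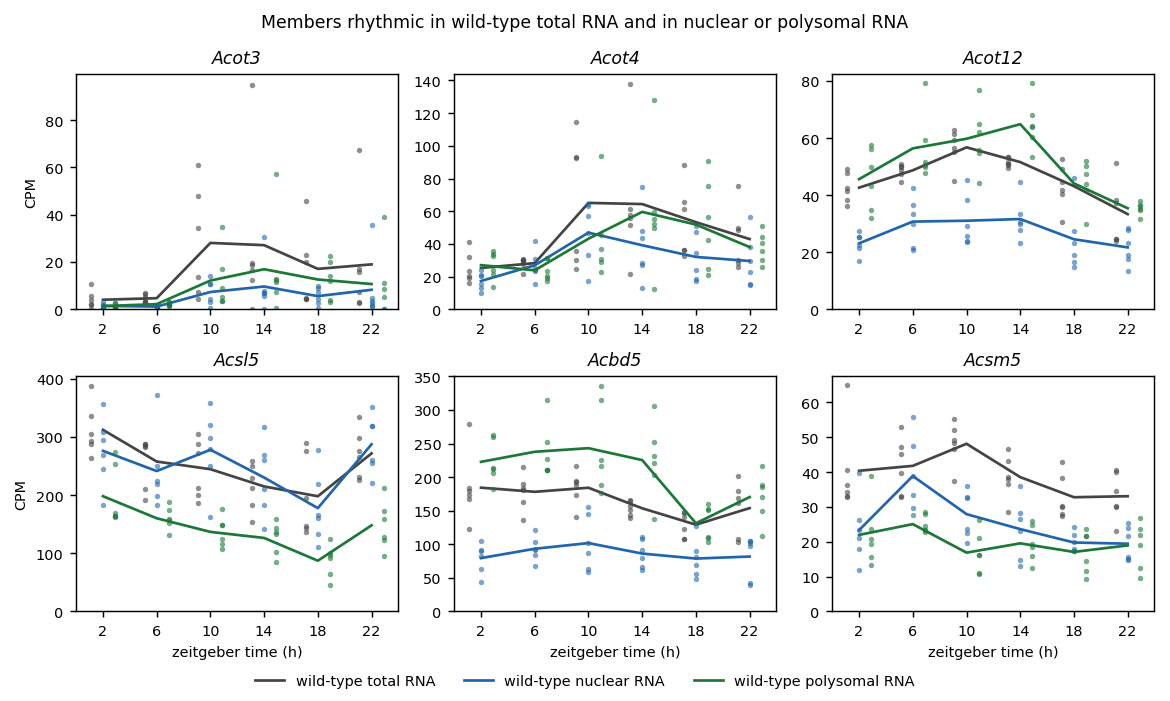
Levels in CPM by zeitgeber time in hours of 6 members in wild-type total (grey), nuclear (blue) and polysomal RNA (green); each point is 1 library and the lines join the means of 6 libraries. Acot12 peaks between ZT10 and ZT14 in all 3 series, and the polysomal means of Acsl5 lie below those of total RNA at every time.

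Averaged over the 6 times, 5 of the 34 tested members were higher and 16 lower in Bmal1-/- than in wild-type total RNA, and 13 were not called. Of all genes 44.2% were called, 21.7% higher and 22.4% lower. The median log2 change was -0.13 over the members and -0.00 over all genes. By family, 2 of 2 Acss genes fell, 5 of 10 Acot genes fell and 1 rose, 4 of 10 Acad genes fell and 2 rose, 2 of 4 Acsl genes fell, 2 of 4 Acbd genes fell and 1 rose, and 1 Acsm gene fell and 1 rose of 4. In whole liver, fewer cells of a type and less RNA per cell cannot be told apart. Markers of other cells moved with the genotype too: the 6 stellate cell markers summed to 201 to 374 CPM (median 280) in wild type and 293 to 492 CPM (median 359) in Bmal1-/- RNA, the 6 cholangiocyte markers to 16.3 to 66.6 CPM (median 25.7) and 45.8 to 136 CPM (median 73.5), and the 5 erythroid markers to 546 to 13134 CPM (median 2585) and 27.7 to 5469 CPM (median 1464), with none of these markers at 0. The 6 adipocyte markers summed to 0.126 to 124 CPM (median 2.05) in wild type and 0 to 4.79 CPM (median 0.310) in Bmal1-/- RNA. Among them Lep was at 0 throughout wild type, and Plin1 was at 0 in replicates 1 to 3 of both genotypes. Within replicates 1 to 3 the adipocyte sums had medians of 21.3 and 0.249 CPM, and the sums of the 6 Kupffer cell and macrophage markers 364 and 220 CPM. Within replicates 4 to 6 these medians were 0.528 and 0.356 CPM, and 212 and 222 CPM. The hepatocyte sums had medians of 83188 and 56880 CPM in replicates 1 to 3, and 72316 and 71977 CPM in 4 to 6. Those of the erythroid sums were 3511 and 1540 CPM, and 1869 and 1436 CPM. The stellate cell and cholangiocyte sums had higher medians in Bmal1-/- RNA in both sets. The part of any of these cells in the changes below was not tested.

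Acot3 showed the steepest fall. Its lowest, median and highest libraries were 0.303, 7.20 and 94.9 CPM in wild type and 0, 1.18 and 35.7 CPM in Bmal1-/- RNA, so the ranges overlapped, while 30 of the 36 Bmal1-/- libraries were below the wild-type median. The log2 change was -2.14 ± 0.41 (SE; edgeR adjusted p = 1.7e-05), a 4.40-fold lower level. Acot4 ran from 16.3 to 138 CPM (median 34.0) in wild type and from 10.5 to 69.4 CPM (median 17.6) in Bmal1-/- RNA, a log2 change of -0.99 ± 0.16 (SE; adjusted p = 8.9e-07). Both rested more on replicates 1 to 3, where the log2 changes were -4.14 and -1.67 (adjusted p = 3.66e-08 and 2.98e-10), than on replicates 4 to 6, where they were -1.01 and -0.37 and not called (adjusted p = 0.186 and 0.168).

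Other thioesterases fell by less. Acot8, a broad peroxisomal thioesterase, had a median of 25.6 CPM in wild type and 17.5 CPM in Bmal1-/- RNA (log2 change -0.59 ± 0.10 SE, edgeR adjusted p = 8.65e-07), and the change was -0.62 in replicates 1 to 3 and -0.56 in replicates 4 to 6, called in both. Acot2, the mitochondrial member of the chromosome 12 cluster, changed by -0.56 (adjusted p = 0.00954), by -1.22 in replicates 1 to 3 and by 0.01 in replicates 4 to 6. Acot7 changed by -0.33 (adjusted p = 1.91e-05). Acot9, Acot11, Acot12 and Acot13 were not called, with log2 changes of 0.02, -0.28, 0.03 and -0.12. Acot11 changed by -0.96 in replicates 1 to 3 and by 0.56 in replicates 4 to 6 (adjusted p = 0.00016 and 0.0231). Its wild-type level also differed between these sets, as did the genotype differences in several marker sums given above. Acot13 was called in replicates 1 to 3 alone (-0.38, adjusted p = 0.0187).

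Acot6 (chr12:84100654-84109783), a peroxisomal thioesterase of the same cluster that acts on branched-chain acyl-CoAs, went the other way. It ran from 0.879 to 4.06 CPM (median 2.47) in wild type and from 2.23 to 10.4 CPM (median 5.15) in Bmal1-/- RNA, and 27 of 36 Bmal1-/- libraries exceeded the highest wild-type library. The log2 change was 1.06 ± 0.12 (SE; edgeR adjusted p = 2.6e-11), with higher means at 6 of 6 times, 0.91 in replicates 1 to 3 and 1.21 in replicates 4 to 6. Its mean was 31 counts per library, the depth behind these levels.

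Among the synthetases, Acss3, a mitochondrial propionyl-CoA synthetase, changed by -0.69 ± 0.17 (SE; edgeR adjusted p = 0.000598) and Acss2, the cytosolic and nuclear acetyl-CoA synthetase, by -0.42 ± 0.14 (adjusted p = 0.0147); in replicates 4 to 6 these were -0.19 and -0.04 and not called (adjusted p = 0.503 and 0.904). Acsm5 ran from 23.2 to 64.9 CPM (median 38.2) in wild type and from 10.3 to 48.3 CPM (median 28.6) in Bmal1-/- RNA, a log2 change of -0.51 ± 0.08 (adjusted p = 4.53e-08) with lower means at 6 of 6 times. Acsl1 and Acsl5 changed by -0.32 and -0.30 (adjusted p = 8.13e-06 and 0.00115); Acsl1 changed by -0.32 in each set of replicates, and Acsl5 by -0.68 in replicates 1 to 3 and 0.05 in replicates 4 to 6. Acsl3, an enzyme of the endoplasmic reticulum and lipid droplets, and Acsl4 were not called (0.23 and 0.04), although Acsl3 was in replicates 4 to 6 alone (0.47, adjusted p = 0.0232). Acsm2, a mitochondrial medium-chain synthetase, was called higher by 1.02 ± 0.29 (adjusted p = 0.00332), but the replicate sets disagreed. In replicates 1 to 3 it had 0.913 ± 0.814 CPM in wild type and 6.95 ± 3.47 CPM in Bmal1-/- RNA, and in replicates 4 to 6 3.46 ± 1.69 and 2.71 ± 2.07 CPM (SD, n = 18 each), log2 changes of 2.88 and -0.61 (adjusted p = 6.69e-10 and 0.133). Acsl4 and Acsm1, not called over all libraries, were called in opposite directions in the sets: 0.42 and -0.31 for Acsl4, and 0.26 and -0.40 for Acsm1, each with replicates 1 to 3 first (adjusted p = 0.00813, 0.00955, 0.00378 and 0.000519).

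The dehydrogenases of straight-chain β-oxidation differed in the size of their change. Acadvl, Acadl, Acadm and Acads act on very long, long, medium and short chains, and their log2 changes were -0.08, -0.21, -0.06 and -0.34. Those of Acadl (edgeR adjusted p = 0.00262) and Acads (0.00051) were called. Acads was called lower in both replicates 1 to 3 and 4 to 6 (-0.25 and -0.42, adjusted p = 0.0156 and 0.0276). For this gene 34 of 36 Bmal1-/- libraries lay below the wild-type median. Acad11, which also takes part in the breakdown of 4-hydroxy acids, had a larger fall, with medians of 58.5 CPM in wild type and 44.1 CPM in Bmal1-/- RNA and a change of -0.51 ± 0.09 (SE; adjusted p = 5.8e-06). Acad8 and Acadsb, which oxidise the branched-chain acyl-CoAs from valine and isoleucine, were slightly higher (0.19 and 0.15, adjusted p = 0.000282 and 0.00848), as was the Golgi protein Acbd3 (0.18, adjusted p = 0.00379). In replicates 4 to 6 alone Acadl, Acadsb and Acbd3 were not called (-0.13, 0.01 and 0.08, adjusted p = 0.334, 0.915 and 0.397). Acad9, known as an assembly factor of respiratory complex I, was not called over all libraries (0.06) and was called in replicates 4 to 6 (0.25, adjusted p = 0.0148). Acad10 likewise was not called over all libraries (0.11). It changed by 0.48 in replicates 4 to 6 (adjusted p = 0.00233) and by -0.22 in replicates 1 to 3 (0.147). Acbd4, called lower over all libraries (-0.15, adjusted p = 0.00911), was not called in replicates 4 to 6 (-0.03, 0.824).

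**Figure D3:**
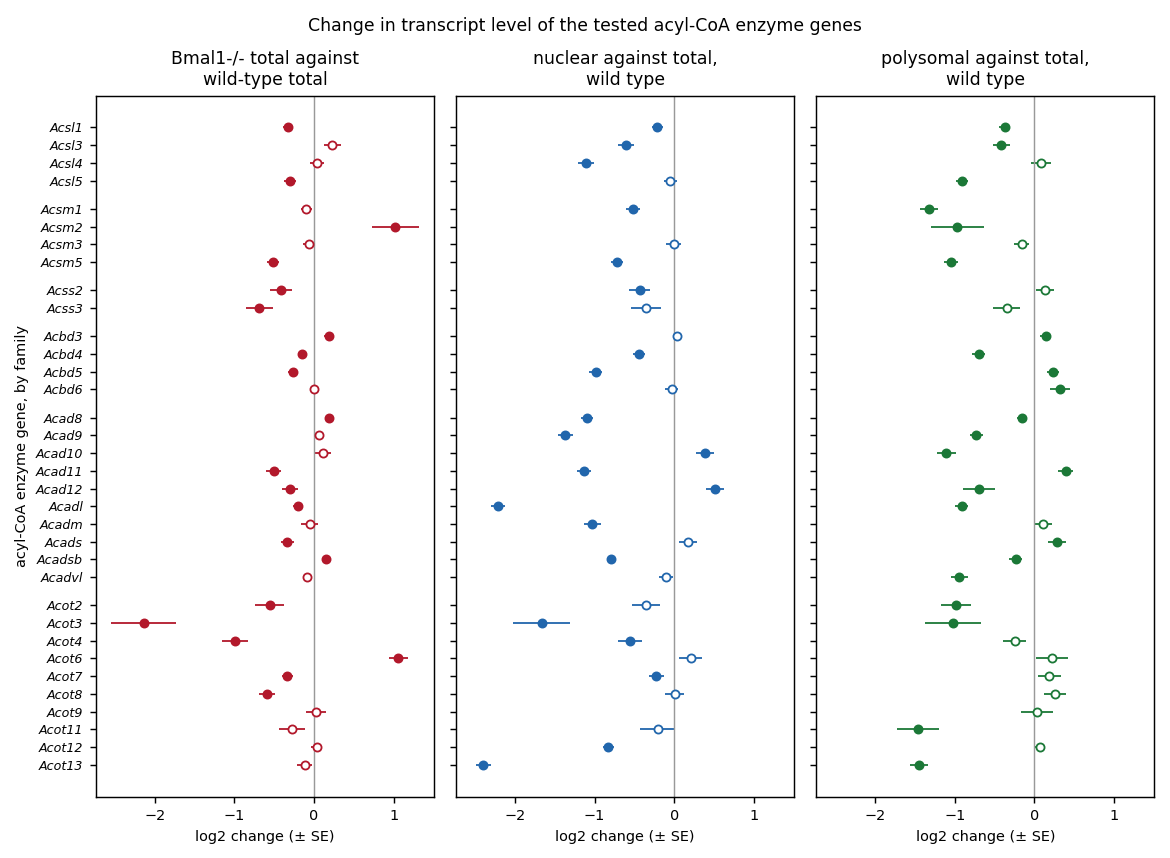
Log2 change (± SE of the edgeR fit) of each tested member, by family, in Bmal1-/- against wild-type total RNA (red) and in nuclear (blue) and polysomal RNA (green) against total RNA of wild type; filled circles passed the adjusted p threshold of 0.05. Acot3 lies farthest left in the first panel at -2.14 and Acot13 and Acadl in the second at -2.40 and -2.22.

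Of 51 other genes of fatty acid activation, transport and oxidation, listed for the pathway with earlier results of these data known, 50 were tested between the genotypes, and 2 were higher and 31 lower, against 21.7% and 22.4% of all genes. Acaa1b, a peroxisomal thiolase, changed by -2.24 and Fabp1, the fatty acid binding protein of liver, by -1.34. The 2 higher genes were Etfa, an electron acceptor of the dehydrogenases (0.25), and Acox2, the branched-chain acyl-CoA oxidase of bile acid synthesis (0.15). In wild-type total RNA 13 of 50 were rhythmic, against 18.9% of all genes, among them Crot and Crat, which move acyl groups from coenzyme A to carnitine (ratios 2.41 and 2.16, peaks at ZT2.91 and ZT21.3), Ppara itself (1.90, ZT10.3) and Cpt1a, which admits long chains to mitochondria (1.79, ZT11.5). Crot and Ppara also differed in rhythm between the genotypes (edgeR adjusted p = 0.0254 and 0.0329).

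Nuclear and polysomal RNA were each set against the same wild-type total libraries, which also serve as controls for the genotypes, so the 3 comparisons are not independent. In nuclear RNA 2 of 32 tested members were higher and 19 lower than in total RNA. Of all genes 83.8% were called, 41.6% higher and 42.1% lower, and the median log2 change was -0.44 over the members and -0.01 over all genes. These are shares of each library, so a lower value says that a transcript made up less of the nuclear RNA than of the total RNA. The 6 stellate cell markers also differed, with 81.2 to 246 CPM (median 144) in nuclear and a median of 280 CPM in total RNA, and their part in these differences was not tested.

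Acot13, a mitochondria-associated thioesterase also called Them2, ran from 78.1 to 212 CPM (median 116) in total and from 11.9 to 35.5 CPM (median 23.1) in nuclear RNA. The 36 nuclear libraries all lay below the lowest total library, and the log2 change was -2.40 ± 0.09 (SE; edgeR adjusted p = 1.64e-36), a 5.27-fold lower share. Acadl ran from 142 to 326 CPM (median 180) in total and from 24.4 to 83.1 CPM (median 38.7) in nuclear RNA, again with no overlap, a change of -2.22 ± 0.09 (adjusted p = 4.92e-35). The other large falls were Acot3 (-1.66), Acad9 (-1.37), Acad11 (-1.13), Acsl4 (-1.10), Acad8 (-1.09) and Acadm (-1.03), all with overlapping ranges and with lower means at 6 of 6 times. Of the 11 members not called, Acadvl and Acads had log2 changes of -0.10 and 0.18, so Acadl and Acadm were called lower and the dehydrogenases of very long and short chains were not. In single sets of replicates Acadvl was called lower in 4 to 6 (-0.31, adjusted p = 0.0204) and not in 1 to 3 (0.15, 0.280). Acads was called higher in 1 to 3 (0.37, 0.0179) and not in 4 to 6 (0.03, 0.895). The 2 genes with a higher nuclear share were Acad12 and Acad10, neighbours on chromosome 5 (chr5:121598277-121618938 and chr5:121621026-121660603), at 0.51 ± 0.11 and 0.39 ± 0.11 (adjusted p = 5.45e-05 and 0.00169), each with higher means at 6 of 6 times. Without the libraries with Xist above 100 CPM Acot2 and Acss3 were called lower too (-0.40 and -0.39, adjusted p = 0.0278 and 0.0393, against -0.35 and -0.36, 0.0513 and 0.0688 with them). Acot7 was no longer called (-0.18, 0.0682, against -0.23 and 0.0223 with them), nor was it in replicates 1 to 3 (-0.03, 0.837). Leaving those libraries out took the tested members to 33, of which 23 were called, 20 of these also called with all libraries. Of the 50 tested pathway genes 7 were higher and 34 lower, against the 41.6% and 42.1% of all genes.

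In polysomal RNA 5 of 34 tested members were higher and 18 lower than in total RNA. Of all genes 76.1% were called, 38.4% higher and 37.6% lower, and the median log2 change was -0.30 over the members and 0.01 over all genes. The split depended on the scaling: with median-ratio size factors 1 member was higher and 21 were lower, with a median change of -0.07 over all genes. The erythroid markers summed to 2157 to 20820 CPM (median 8852) in polysomal RNA against a median of 2585 CPM in total RNA, and 1 polysomal library held 2163 CPM of the 6 pancreatic acinar markers, which had a median of 0 CPM in every series and of which 5, 4 and 2 of 6 were at 0 throughout wild-type total, nuclear and Bmal1-/- total RNA, and none throughout polysomal RNA. Their part in these differences was not tested.

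Acot13 was again low, from 10.04 to 119 CPM (median 43.3) in polysomal RNA, a log2 change of -1.45 ± 0.11 (SE; edgeR adjusted p = 2.86e-19). Acsm1, a mitochondrial medium-chain synthetase that also activates benzoate, ran from 150 to 353 CPM (median 246) in total and from 50.5 to 227 CPM (median 90.6) in polysomal RNA, a change of -1.33 ± 0.11 (adjusted p = 3.57e-17), which was -0.70 in replicates 1 to 3 and -2.04 in replicates 4 to 6, called in both (5.51e-05 and 5.8e-20). Acsm5 changed by -1.05 and Acad10, which had a higher share in nuclear RNA, by -1.11 (adjusted p = 8.29e-18 and 4.82e-13). Both members were lower at 6 of 6 times. The change of Acsm1 within each set compares same-numbered libraries that the labels do not match, so it can include a difference between sets. Acadvl and Acadl changed by -0.94 and -0.91 and Acsl5 by -0.91 (adjusted p = 4.76e-13, 1.99e-16 and 9.91e-19).

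Acot11 changed by -1.46 ± 0.26 and Acot3 and Acot2 by -1.02 and -0.99 (edgeR adjusted p = 7.67e-07, 0.00715 and 5.24e-06), but in replicates 1 to 3 these were -2.71, -2.04 and -2.01, and in replicates 4 to 6 they were -0.51, -0.08 and -0.34 and none was called (adjusted p = 0.143, 0.885 and 0.0983). The summed adipocyte markers, given above beside Acot11, had their higher levels in replicates 4 to 6 of the polysomal series (0.688 to 79.6 CPM, median 10.3) and not in replicates 1 to 3 (0 to 7.31 CPM, median 1.78), the reverse of total RNA. Plin1 and Lep were at 0 throughout those polysomal replicates 4 to 6. Other marker sums reversed in the same way, here as medians of replicates 1 to 3 and 4 to 6. The Kupffer cell and macrophage markers had 364 and 212 CPM in total and 181 and 274 CPM in polysomal RNA. The erythroid markers had 3511 and 1869 CPM in total and 6325 and 12454 CPM in polysomal RNA. Those of cholangiocytes and sinusoidal endothelium did not follow this pattern. The part of any of these cells was not tested. The means of Acot11, Acot3 and Acot2 reversed too, with replicates 1 to 3 given first. Acot11 had 4.37 and 2.01 CPM in total and 0.747 and 1.66 CPM in polysomal RNA. Acot3 had 22.9 and 10.5 CPM in total and 5.59 and 13.05 CPM in polysomal RNA. Acot2 had 11.6 and 9.60 CPM in total and 3.03 and 8.18 CPM in polysomal RNA. The labels state no match between same-numbered sets, so changes within a set do not separate the fraction from a difference between sets. Among the members higher in polysomes, Acad11 had the largest change, 0.39 ± 0.09 (adjusted p = 0.000127), with medians of 58.5 CPM in total and 81.2 CPM in polysomal RNA, and with median-ratio size factors it was the 1 member still higher. In replicates 4 to 6 alone it changed by 0.08 and was not called (adjusted p = 0.577). Acbd6, Acads, Acbd5 and Acbd3 were higher by 0.32, 0.29, 0.23 and 0.14 (adjusted p = 0.022, 0.018, 0.00316 and 0.0495) and were not called with those size factors (0.102, 0.111, 0.0584 and 0.478) or in replicates 4 to 6 (0.112, 0.148, 0.328 and 0.276). Acbd3 was not called either without the libraries with Xist above 100 CPM (adjusted p = 0.0658), nor Acbd6 without the least correlated libraries (0.0516), and Acbd6 changed by 0.02 without polysomal replicate 1 (0.868). Of the 51 pathway genes 19 were higher and 17 lower, against the 38.4% and 37.6% of all genes.

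Polyadenylation site usage was measured as the share of a gene's site counts at each site. Sites of the authors' filtered list were tested where they held at least 5% of their gene and the gene had another such site, which gave 52 sites in 19 members between the genotypes. There, edgeR called 0 of the 52 sites, with 8 at an unadjusted p under 0.05, against 9.04% of all sites. In wild-type total RNA 0 of 52 sites were rhythmic in usage (3 unadjusted), against 0.351%. Between nuclear and total RNA 38 of 49 sites in 18 members were called, 19 higher and 19 lower, against 78.7% of all sites, and between polysomal and total RNA 34 of 49, 17 higher and 17 lower, against 70.5%. The members' shares lay close to the background in both.

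Acsl1 held the clearest shift. Its site at the annotated 3′ end (chr8:46535780-46536055, plus strand) took 56.7% ± 6.36 (SD, n = 36) of the site counts in total RNA and 17.5% ± 4.90 (SD, n = 36) in nuclear RNA. The nuclear libraries ran from 8.47% to 25.7% and the total libraries from 45.98% to 75.8%, with no overlap, and the log2 change in usage was -1.70 ± 0.08 (SE; edgeR adjusted p = 6.05e-30). The next site upstream (chr8:46535031-46535156), 895 bases before the annotated end, went from 23.8% to 50.3%, and the first site (chr8:46472277-46472436), 63615 bases before it, from 3.78% to 17.9%. In polysomal RNA the end site took 52.7% and the first site 0.354%. The counts behind these shares averaged 6895 per library in total and 2844 in nuclear RNA.

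Acadm and Acsm5 moved likewise. The end site of Acadm (chr3:153922349-153922572, minus strand) held 54.2% ± 12.8 in total and 29.7% ± 8.06 in nuclear RNA (SD, n = 36 each; edgeR adjusted p = 5.82e-13), while a site 15392 bases upstream (chr3:153937745-153937783) rose from 22.3% to 44.2%. In Acsm5 the site at the annotated end (chr7:119543131-119543375, plus strand) went from 75.2% ± 4.98 to 50.7% ± 11.9 in nuclear RNA (adjusted p = 2.77e-14). Its first site (chr7:119534946-119535005), 8355 bases upstream, held 12.1% ± 3.74 in total, 33.4% ± 11.8 in nuclear and 44.2% ± 13.05 in polysomal RNA, and the polysomal difference had an adjusted p of 3.1e-25. The polysomal libraries ran from 18.9% to 68.2% and the total libraries from 5.91% to 22.9%, which overlap slightly. These Acsm5 shares rest on 228, 38 and 77 site counts per library in total, nuclear and polysomal RNA, so the nuclear ones are the least precise.

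Acot7 and Acbd6 had the other large polysomal shifts. The last site of Acot7 (chr4:152271839-152271859, plus strand), at the annotated end, held 6.87% ± 10.1 in total and 27.1% ± 11.3 in polysomal RNA (SD, n = 36 each; edgeR adjusted p = 1.34e-17), and the total libraries included 1 at 64.7%. In Acbd6 a site 115179 bases before the annotated end (chr1:155572197-155572295, plus strand) held 61.4% ± 9.44 in total and 81.1% ± 10.7 in polysomal RNA (adjusted p = 3.34e-11), and 83.4% ± 6.85 in nuclear RNA. The 2 sites nearest the Acbd6 end held 7.28% and 9.10% in total and 1.71% and 4.57% in polysomal RNA.

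**Figure D4:**
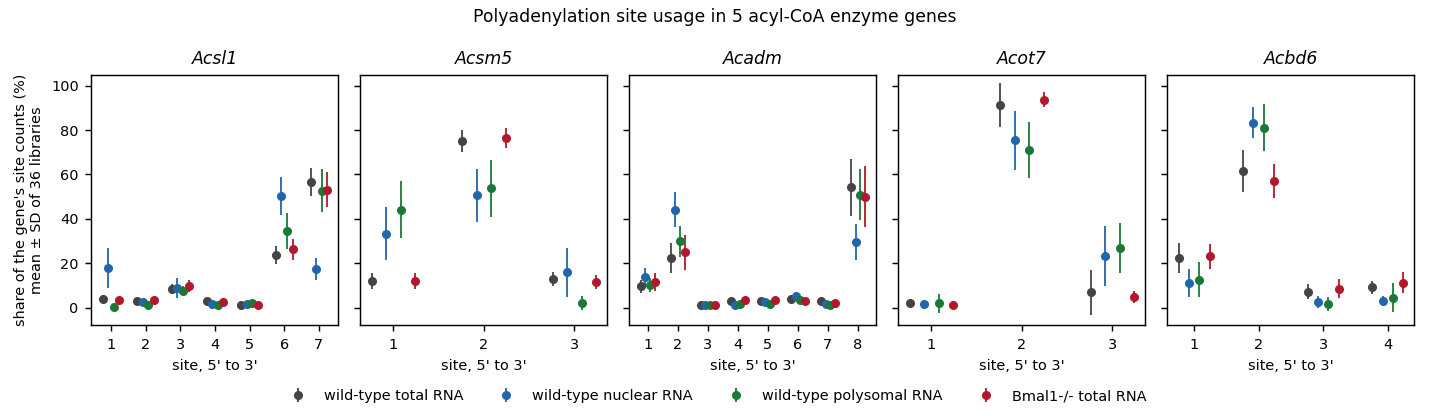
Share (%) of each gene's site counts at its polyadenylation sites, numbered 5′ to 3′, in 5 members; points are means and bars SDs of 36 libraries of wild-type total (grey), nuclear (blue) and polysomal RNA (green) and Bmal1-/- total RNA (red). The last Acsl1 site falls from 56.7% in total to 17.5% in nuclear RNA, and the Bmal1-/- means lie beside those of wild-type total RNA.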

How the data were processed

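Gene and polyadenylation site counts from QuantSeq 3′ libraries of 144 liver samples were used as deposited. The authors' raw counts are whole reads per gene or site; per the submitters' processing notes, STAR 2.4.2a, HOMER and edgeR were used, with the builds mm10 and GRCm38.p5, in roles not given in the sources used here. Groups came from the sample labels. Every column had a sample.

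Tests were run with R 4.3.3, edgeR 4.0.16 (TMM scaling, robust quasi-likelihood F tests, Benjamini-Hochberg adjustment over all genes or sites, threshold 0.05) on genes averaging 10 or more counts over the libraries fitted. Level was averaged over time points, rhythm was a cosine and sine of 24 h, and a difference in rhythm was their interaction with the series. Site usage was tested with the logarithm of the gene's site total plus 0.5 as offset, for sites with at least 5% of a gene with at least 50 counts. Sites were given to genes by position and strand (26531 of 29199 listed sites were kept); strand came from RefSeq promoters, or otherwise from the majority of site counts, and where both were known they gave the same strand for 93.1% of 7820 genes. DESeq2 1.42.0 was an alternative; tables were made with pandas 2.3.3 in python 3.11.15.

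The members and gene lists were chosen with earlier results of these data known. All members could be named. Given in full were the 6 largest rises and the 6 largest falls past the threshold in each level comparison among genes with at least 50 counts, members rhythmic in wild-type total RNA with a ratio of at least 1.5, members called in rhythm difference, and for usage the top site of the 3 genes with the largest change; other members were added after their values were seen. Pathway genes were named by the size of their change; 2 that this rule would name are not reported here.

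Of 360 pairs of libraries within a group 0 were identical, and chi-square over degrees of freedom was at least 4.03 in each. Replicate numbers were not treated as pairs. On simulated counts, the level test for genes recovered 75 of 100 changes of 0.5 and 95 of 100 of 1 (log2), the rhythm test 10 of 100 ratios of 1.5 and 99 of 100 of 3, the rhythm difference test 1 and 79 of 100, and the usage test 181 of 200 sites whose share was multiplied by 0.5. False calls were 13 of 11634, 2 of 11604 and 29 of 12697 for level, rhythm and usage. Simulated libraries were independent, with the same spread set for every gene or site. No difference in level or usage between sets of replicates was simulated. These rates therefore need not hold for members that vary more or differ between the sets, such as Acot3 and Acsm2.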

Additional observations from a re-analysis of the deposited data

Results flagged for a closer look

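Of 108 groups of 6 libraries, for the 9 members rhythmic in wild-type total RNA, in wild-type and Bmal1-/- total RNA, 14 held a library far from the other 5, its gap to the nearest being too large a share of the group's range by Dixon's criterion. For independent, normally distributed values this criterion flags about 1 in 20 groups. CPM can be skewed and the 9 members share libraries, so the count is not read as an excess over that rate. No explanation of these values was tested.

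Acot3 was high in wild-type ZT14 replicate 2 (94.9 CPM, others 0.303 to 19.7), wild-type ZT22 replicate 5 (67.4, others 2.86 to 17.2), Bmal1-/- ZT2 replicate 6 (30.0, others 0.392 to 10.5) and Bmal1-/- ZT6 replicate 6 (8.33, others 0 to 1.81). Acot4 was high in wild-type ZT14 replicate 2 (138 CPM, others 21.8 to 61.3) and low in wild-type ZT6 replicate 4 (21.4, others 28.0 to 30.7). Acsl1 was high in wild-type ZT14 replicate 2 (1393 CPM, others 842 to 970), so this library stood out for 3 members, and in Bmal1-/- ZT10 replicate 1 (1108, others 728 to 819).

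Acot12 was high in Bmal1-/- ZT10 replicate 1 (73.6 CPM, others 49.7 to 53.6) and ZT18 replicate 6 (103, others 38.2 to 60.6). Wild-type ZT2 replicate 4, the library least correlated with its series, was low for Acot7 (6.40 CPM, others 21.5 to 28.3) and high for Acsm5 (64.9, others 32.9 to 40.7). Acsm5 was low in Bmal1-/- ZT14 replicate 1 (10.3 CPM, others 24.7 to 30.9), and Acot11 high in wild-type ZT14 replicate 3 (10.01, others 2.27 to 3.68).

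The rhythm of Acot11 differed between the genotypes by the interaction test (edgeR adjusted p = 0.0375); the call was lost under 6 of the 9 alternatives run, with adjusted p up to 0.342.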

How the results depend on the processing

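Counts of members differing in level ran from 16 to 24 (21 as reported) between the genotypes, 21 to 29 (21) for nuclear and 18 to 23 (23) for polysomal RNA over the alternatives run. The members behind these counts changed too. Between the genotypes 16 were called in replicates 4 to 6 alone, and 10 of these were among the 21 reported. In replicates 1 to 3 alone 24 were called, 20 of them among the 21. Other counts moved more. Rhythmic members in wild-type total RNA (9) numbered 3 with all 4 series in 1 fit, 5 in replicates 1 to 3, 3 in replicates 4 to 6 and 4 with time point as a factor. In nuclear RNA (3) they numbered 1 without a filter, 5 with all series in 1 fit, 1 in each set of replicates, 5 with DESeq2 and 1 with time as a factor, and in polysomal RNA (5) 0 in replicates 1 to 3. Rhythm differences between the genotypes (1) numbered 0 without a filter, with all series in 1 fit and in each set of replicates, 3 without the libraries with Xist above 100 CPM and 2 without the least correlated libraries; between polysomal and total RNA (0) there was 1 without a filter. Sites differing in usage numbered 2 between the genotypes (0) in replicates 4 to 6, and with a gene minimum of 200 counts 19 of 21 in nuclear (38) and 17 of 28 in polysomal RNA (34). The cause of these shifts was not tested beyond the smaller number of sites. Leaving out libraries with Xist above 100 CPM, for all but 2 comparisons of Bmal1-/- RNA, and leaving out the least correlated libraries were chosen after seeing the data.

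With the replicate number as a block, rhythm differences between the genotypes numbered 3 and sites differing in usage 2; levels numbered 21, 22 and 21 for Bmal1-/-, nuclear and polysomal RNA. With each combination of replicate number and time point as a block, levels numbered 23 in nuclear RNA, where Acot2 and Acss3 were called as well (-0.35 and -0.36, edgeR adjusted p = 0.00364 and 0.000614), and 18 in polysomal RNA, where Acads, Acbd3, Acbd6, Acot3 and Acsm2 were not called (0.0985, 0.157, 0.220, 0.0693 and 0.0502). Same-numbered libraries of total RNA and another series deviated together (correlation over 0.1) in 34 of 36 pairs for nuclear, 1 for polysomal and 18 for Bmal1-/- RNA, and correlated best with their own number in 30, 0 and 14. For nuclear RNA this is a hint from the data, not from the design: it did not hold for every pair and the labels state no pairing, so the fits without the block are the ones reported.

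Some level changes reversed with a call in either fit. Between the genotypes this was Acsm1 (0.26) in replicates 1 to 3. In replicates 4 to 6 they were Acot11 (0.56), Acot2 (0.0092), Acsl4 (-0.31), Acsl5 (0.051) and Acsm2 (-0.61). In polysomal RNA they were Acadsb (0.074) in replicates 1 to 3 and Acsl4 (-0.55) in replicates 4 to 6. Polysomal and total sets are matched by number only, so these polysomal changes can include a difference between sets. The cause of the reversals was not tested. Among values of single members and sites, 4279 kept direction and call, 82 changed sign with no call in either fit (42 in level and 40 in site usage, 51 of the 82 in 1 set of replicates alone), 130 lost the call, 69 gained it and these 8 reversed. Between the genotypes the mean counts per library were lowest for Acot9 (14.2), Acot11 (24.2), Acsm2 (26.2) and Acad12 (26.4).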
